A study of Mus musculus with 4 samples.

Results

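The beta and gamma variable protocadherins are 40 neighbouring genes of mouse chromosome 18, taken as the protein-coding genes whose symbols start with Pcdhb, Pcdhga or Pcdhgb. They comprise 22 beta genes, 12 gamma A genes and 6 gamma B genes, of 21755 protein-coding genes on chromosomes 1 to 19 and X. Each was asked for binding of CTCF, the zinc-finger protein that marks insulators and stops cohesin at loop anchors. A gene counted as occupied when the summit, the highest point of a CTCF peak, lay within 1 kb of one of its annotated transcription start sites (TSSs).

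Protocadherins are cell-surface adhesion proteins of neurons, and each neuron transcribes its own small selection of the clustered genes. Each variable exon has its own promoter and encodes the extracellular cadherin repeats, the transmembrane segment and part of the cytoplasmic tail. The beta genes are complete in that exon, whereas every gamma exon is spliced to constant exons shared by the gamma cluster. Gamma A and gamma B exons are interspersed along the same stretch of DNA. A conserved sequence element with a CGCT core sits upstream of most variable exons, and CTCF is known to bind there and to connect promoters with distant enhancers.

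CTCF-bound DNA was enriched with an antibody and sequenced (ChIP-seq) from frozen hippocampal tissue, labelled layer of hippocampus, of B6CASTF1/J mice, a first-generation hybrid strain. All animals were adult males aged 2 months with no treatment or genetic change named, so the study has a single group and no contrast between conditions. The 4 libraries form 2 biological replicates of 2 technical libraries each. Each replicate is a pool of 7 biosamples (pools C and D), both carry the same donor entry, and the labels do not say that the pools came from different animals. Each replicate contributes 1 signal per peak, so values are given for both, and no test between genes was made because genes are not replicates. The tissue mixes cell types, and a higher signal through binding in more cells and one through more binding per cell cannot be told apart. The read depth behind the peaks is unknown. The list used holds the 90278 peaks that recurred between the replicates at an irreproducible discovery rate, or IDR, of 0.05.

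CTCF peaks lay at nearly every member promoter. A summit was found at 39 of 40 members, that is at 21 of 22 beta genes, 12 of 12 gamma A genes and 6 of 6 gamma B genes. Among all protein-coding genes 38.0% were occupied. Every occupied member had exactly 1 promoter summit. By comparison, 23.0% of all occupied protein-coding genes had 2 or more. All 39 member peaks also stood in the peak lists made from replicate 1 alone, from replicate 2 alone and from the pooled reads. The pooled-read list repeats the member signals of the list used. Peaks of all 12 alpha variable protocadherins of the same locus stood in each of these lists too. The share of all peaks that do so was not counted. All had the highest IDR score that the lists allow. That score is capped and weaker peaks reach it too, such as 1 of signal 78.4 between the clusters. The share of all peaks with it was not counted.

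The only member without a passing peak was Pcdhb1, the first gene of the beta cluster. A weak peak there (signal 34.5, summit 19 bp after the TSS) was ranked but did not pass the threshold. Its signal was 17.5 in replicate 1 and 11.8 in replicate 2, below the lowest occupied member in both. The summit of that peak stood 41 bp before the start codon (-41 bp), nearer than at any occupied member.

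Short sequences shared by the member promoters are shown first, because they line up with the summits described below. All sequence, for words and core matches alike, was read from the mm10 reference assembly. Alleles of these hybrid mice that differ from the reference were not searched. They were read on the strand of the gene within 50 bp of the summit and were picked after the values were seen, as the most widespread words of 5 and 8 bases in all members or in a subfamily. Capitals mark the whole word.
All members, gamma A and gamma B: CGCTG
Beta, 5 bases: GCGCT
Beta, 8 bases: GGTGGCGC
Gamma A, 8 bases: CGCTGTTC
Gamma B, 8 bases: CGCCGCTG

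The word CGCTG, which contains the core of the known conserved element, occurred at 37 of 39 occupied members. It was present at 19 of 21 beta, 12 of 12 gamma A and 6 of 6 gamma B summits, and Pcdhb13 and Pcdhb20 lacked it. It read in the direction of the gene at all 37, and its reverse complement CAGCG occurred at none of the 39. On either strand the word was present at 35.6% of 9654 summits at protein-coding promoters. In equally long windows just upstream of protein-coding gene starts the share was 19.2%. Among the 12 alpha variable protocadherins of the same locus, all occupied, 5 had it at their strongest summit.

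The other words were shared less widely. GGTGGCGC occurred at 19 of 21 beta summits, at none of the 12 gamma A summits and at none of the 6 gamma B summits. Genome-wide 3.97% of promoter summits had it, counted on either strand as are the genome-wide shares below. Its first 6 letters match the end of the 12-base CTCF core consensus read on the strand of the gene. GCGCT was present on the gene strand at 20 beta summits and at no gamma summit. On either strand it occurred at 24 of the 39 occupied members, and it is common, at 34.7% of promoter summits genome-wide. CGCTGTTC occurred at 9 of 12 gamma A summits and nowhere else among members, against 0.694% of promoter summits. CGCCGCTG, which ends in the common word, occurred at 7 gamma A and 4 gamma B summits and at no beta summit. Its share of promoter summits was 2.27%. These shares describe the members from which the words were picked, and such a choice favours differences between subfamilies.

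Pcdhb1 had none of the 5 words in the 500 bp before its start codon. The same was true of Pcdhgc4 and Pcdhgc5, C-type protocadherins at the far end of the gamma cluster that also had no passing promoter peak. Their ranked peaks had signals of 35.2 and 73.2. A missing word says only that these letters are absent from the window searched in the reference assembly.

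No member summit had a close match to the CTCF core consensus. A match with at most 1 mismatch within 50 bp was present at 0 of 39 occupied members. The share was 20.5% among the 9654 promoter summits and 1.09% in windows of the same length 1 kb away from those summits. With up to 2 mismatches, 8 of 39 members matched: 7 beta genes, 1 gamma A gene and no gamma B gene. The corresponding share of promoter summits was 49.2%. At that looser limit 9.13% of the distant windows matched too. The members with such a match did not have the stronger peaks: their median signal was 166, against 259 for the other 31. That contrast is partly 1 of subfamilies, since most matching members are beta genes, which had the lowest median signal. Within beta the median was 159 for the 7 genes with a match and 226 for the others. At 3 of the 7 beta genes, Pcdhb10, Pcdhb11 and Pcdhb12, that match lay on the gene strand and ended on the first base of CGCTG. At Pcdhb18, Pcdhb19, Pcdhb20 and Pcdhb21 it lay on the opposite strand. Counting mismatches to 1 fixed consensus can miss more degenerate sites, so a missing match does not show that a CTCF site is absent.

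Signal strength was next compared between the subfamilies. The signal comes from the authors' peak caller as a score without a stated scale, so it is used only to describe and compare peaks within these lists, and a ratio of scores is not a ratio of bound DNA. The beta peaks had a median pooled signal of 177 (range 102 to 365, n = 21 genes), the gamma A peaks 255 (155 to 399, n = 12) and the gamma B peaks 304 (209 to 453, n = 6). The median over all 8268 occupied protein-coding promoters was 197, and 26 of the 39 members lay above it. Protocadherin promoters thus spread around the middle of occupied promoters, with beta genes lowest.

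The order of the subfamilies was the same in each replicate. Beta, gamma A and gamma B medians were 83.1, 124 and 158 in replicate 1 and 92.7, 124 and 152 in replicate 2. The gamma A median was 1.44 times the beta median in the pooled signal, 1.49 times in replicate 1 and 1.34 times in replicate 2. The gamma B median was 1.72 times the beta median, with 1.90 and 1.64 in the replicates. The step from gamma A to gamma B was smaller, at 1.19 in the pooled signal, 1.28 in replicate 1 and 1.22 in replicate 2.

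The ranges overlapped all the same. Of the 12 gamma A genes 11 lay above the beta median, and 2 lay above the strongest beta gene. All 6 gamma B genes lay above the beta median, and 1, Pcdhgb7, lay above the strongest beta gene. Taking every possible pair, the gamma A gene was the stronger in 70.2% of pairs with beta, and the gamma B gene in 84.1% of pairs with beta and 72.2% of pairs with gamma A.

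**Figure D1:**
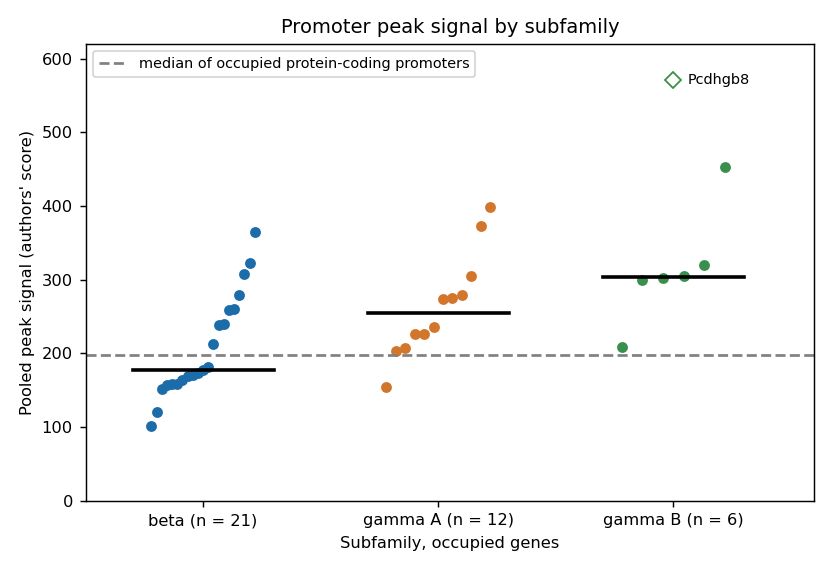
Pooled CTCF peak signal (authors' score, y axis) of each occupied gene by subfamily (x axis), with black bars at the medians and a dashed line at the median of occupied protein-coding promoters. The medians step from 177 to 255 to 304 while the ranges overlap, and the open diamond is Pcdhgb8, which is not a protein-coding gene in the annotation and enters no median.

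Because gamma B exons lie among gamma A exons, each gamma B gene could be set against the nearest gamma A genes on either side of it. Some gamma A genes, such as Pcdhga8 and Pcdhga9, neighbour gamma B genes on both sides, so the comparisons share values. In the pooled signal 5 of the 6 gamma B genes were stronger than both of their neighbours. The count was 5 in replicate 1 and 4 in replicate 2.

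Pcdhgb4 (143 in replicate 1, 154 in replicate 2) exceeded Pcdhga7 (108 and 120) and Pcdhga8 (112 and 111). Pcdhgb5 (147 and 159) exceeded Pcdhga8 and also Pcdhga9 (98.3 and 107). Pcdhgb6 (169 and 150) exceeded Pcdhga9 and Pcdhga10 (114 and 89.4). For these 3 genes the difference to each neighbour was seen in both replicates.

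Pcdhgb7 (216 and 237) also stood above its neighbours in both replicates, narrowly over Pcdhga11 (192 and 206) and far over Pcdhga10. Pcdhgb1 (172 and 126) exceeded Pcdhga3 (121 and 113) in both, but fell short of Pcdhga4 (150 and 128) in replicate 2. Pcdhgb2 (110 and 98.8) was the exception and lay below both Pcdhga4 and Pcdhga5 (139 and 169) in both replicates.

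A further gamma B locus, Pcdhgb8, is annotated as a polymorphic pseudogene and is therefore no member here. Its promoter peak had a signal of 571 (264 in replicate 1, 303 in replicate 2), above every member and above the flanking Pcdhga11 and Pcdhga12 in both replicates. Counting it with gamma B would place the median at 305.

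The strongest beta peaks belonged to Pcdhb4, Pcdhb3 and Pcdhb10. The Pcdhb4 peak (chr18:37307222-37307539, mm10) had a signal of 178 in replicate 1 and 185 in replicate 2, with the summit 74 bp before the TSS (-74 bp). The Pcdhb3 peak (chr18:37300621-37300916) reached 162 and 161, with the summit at -42 bp. The Pcdhb10 peak (chr18:37411497-37411779) reached 147 and 158, with the summit at -29 bp. These genes held the first 3 places among beta genes in both replicates, and their closest core matches had 3, 4 and 2 mismatches.

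The weakest occupied beta genes were Pcdhb8, Pcdhb18 and Pcdhb13. Pcdhb8 (chr18:37354852-37355291) had 45.0 and 57.3, with the summit at -199 bp from its TSS in the transcript set used. That TSS lies on the start codon itself, at 37355271, while the annotated gene start lies upstream of it at 37355121. Pcdhb18 (chr18:37489175-37489614) had 58.3 and 61.4, at -70 bp. Pcdhb13 (chr18:37442233-37442416) had 59.4 and 90.2, at -166 bp, and was one of the members without CGCTG. In both replicates Pcdhb8 was the lowest occupied gene, whereas Pcdhb13 was low in replicate 1 only. Closest core matches had 3, 2 and 4 mismatches.

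The other beta genes are listed by a cutoff of 100, chosen for the listing and not a gap in the signals. Pcdhb7 (144 and 134), Pcdhb5 (131 and 126), Pcdhb14 (124 and 135), Pcdhb17 (118 and 124), Pcdhb2 (118 and 120) and Pcdhb9 (109 and 104) exceeded 100 in both replicates. Pcdhb6, Pcdhb11, Pcdhb15, Pcdhb19, Pcdhb21 and Pcdhb22 lay between 74.6 and 90.1 in both. The remaining 3, Pcdhb12, Pcdhb16 and Pcdhb20, differed more between the replicates and are described below.

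Pcdhga11, Pcdhga12 and Pcdhga5 led the gamma A genes. Pcdhga11 (chr18:37755493-37755850) had 192 in replicate 1 and 206 in replicate 2, with its summit at -41 bp from the TSS. Pcdhga12 (chr18:37765725-37766056) had 170 and 206, and its summit fell 313 bp after the annotated TSS, upstream of the start codon as at the other members. Pcdhga5 (chr18:37694162-37694457) had 139 and 169, at -68 bp. The first pair are the last members of the cluster and stood above all other gamma A genes in both replicates. Pcdhga4 (150 and 128), Pcdhga6 (127 and 151) and Pcdhga1 (144 and 133) came next in the pooled signal, and in replicate 1 Pcdhga4 and Pcdhga1 lay above Pcdhga5.

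Pcdhga2 was the weakest gamma A gene in both replicates. Its peak (chr18:37668749-37668948) had 71.3 and 82.5, with the summit at -115 bp. Pcdhga10 (chr18:37746836-37747065) had 114 and 89.4, at -62 bp. Pcdhga9 (chr18:37736734-37736973) had 98.3 and 107, at -78 bp. The last pair changed places between the replicates, so their order is not resolved. The 6 gamma A genes named had closest core matches with 3 or 4 mismatches.

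Among gamma B genes Pcdhgb7 (chr18:37751339-37751680, summit at -61 bp) was the strongest in both replicates, and Pcdhgb2 (chr18:37689610-37689855, -77 bp) the weakest. Pcdhgb1 (chr18:37680083-37680364, -29 bp), Pcdhgb4 (chr18:37720174-37720465, -64 bp), Pcdhgb5 (chr18:37730753-37731051, -103 bp) and Pcdhgb6 (chr18:37741840-37742163, -94 bp) lay within 299 to 320 in the pooled signal. The order of these 4 differed between the replicates. Closest core matches in the 6 genes had 3 or 4 mismatches.

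**Figure D2:**
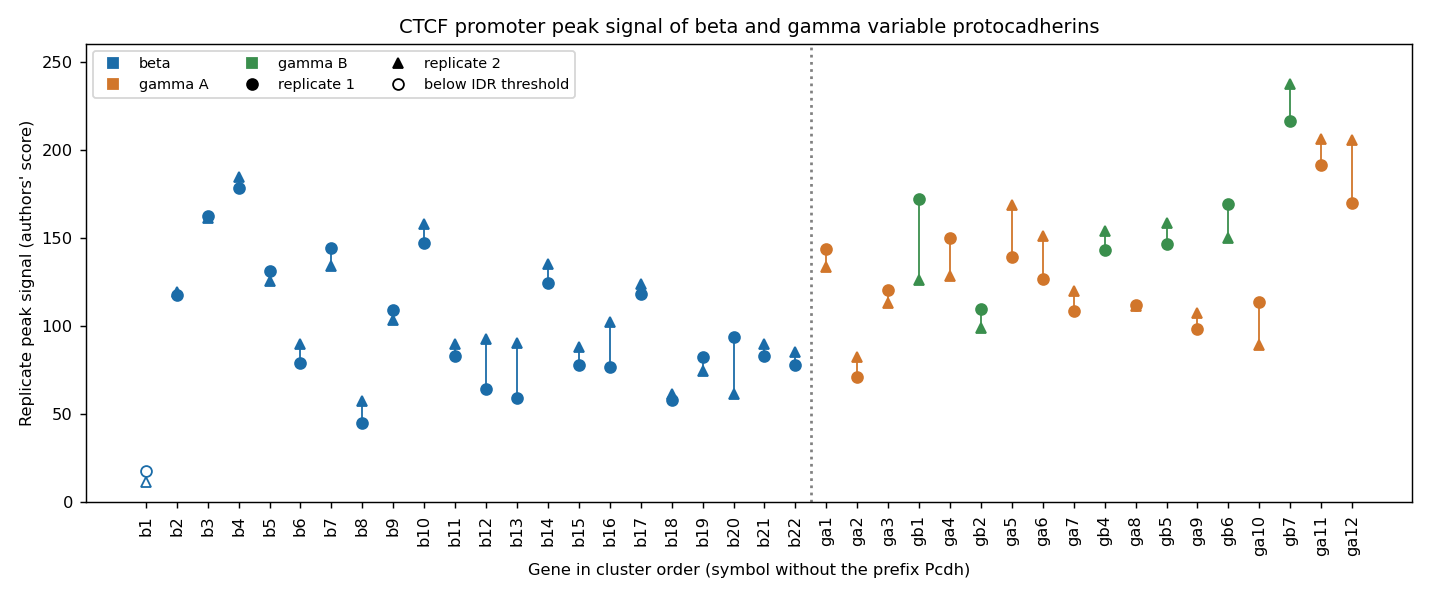
CTCF peak signal (authors' score, y axis) of replicate 1 (circles) and replicate 2 (triangles) for the 40 members in cluster order (x axis, beta left and gamma right of the dotted line, lines join the replicates of a gene). Pcdhb1 (open symbols, 17.5 and 11.8) lies below all others, and the last 3 genes, Pcdhgb7, Pcdhga11 and Pcdhga12, stand highest in replicate 2.

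Signal was then followed along the DNA. Among the occupied beta genes it was higher at the upstream end: the first 6, Pcdhb2 to Pcdhb7, had a median of 269, the 9 between, Pcdhb8 to Pcdhb16, 177, and the last 6, Pcdhb17 to Pcdhb22, 162. Spearman's rho between signal and order was -0.52 across 21 beta genes (-0.46 in replicate 1, -0.60 in replicate 2). It was -0.24 without the first 4 occupied genes, Pcdhb2 to Pcdhb5. The gene upstream of them all, Pcdhb1, goes against the slope, and with its ranked peak of 34.5 included rho was -0.32.

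The gamma genes showed the opposite slope. The first 6 genes (Pcdhga1 to Pcdhgb2) had a median of 255, the middle 6 (Pcdhga5 to Pcdhgb5) 287 and the last 6 (Pcdhga9 to Pcdhga12) 347. The rank correlation of signal and order was 0.45 across 18 genes, 0.36 in replicate 1 and 0.45 in replicate 2. This joint value rested on the last 3 members: without Pcdhgb7, Pcdhga11 and Pcdhga12 it was 0.061. Taken apart, rho was 0.22 in the 12 gamma A genes (0.20 in replicate 1, 0.24 in replicate 2). In the 6 gamma B genes it was 0.83 (0.43 and 0.77). All these values are descriptions across genes that share libraries and neighbourhood. Pearson's r of log2 signal and position was -0.51 for beta and 0.48 for gamma.

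Replicate signals ranked the members alike. Across the 39 occupied members the log2 signals correlated with a Pearson's r of 0.89 and a Spearman's rho of 0.90, a description over genes measured in the same pair of libraries. Of the 5 strongest members in each replicate, 4 were shared. The SD of log2 signal across members was 0.49, against 0.12 for the replicate error of a member's mean log2 signal. Single places in the ranking were nonetheless mostly unresolved: in 30 of the 38 steps between neighbours in the order of level, the gap was within the replicate spread. The widest step, 0.32 on the log2 scale, separated Pcdhb18 from Pcdhb13.

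Some genes differed more than others between the replicates. To compare them, the log2 ratio of replicate 2 to replicate 1 was centred on its median over all peaks, 0.09. Pcdhb20 (93.9 and 61.8, ratio -0.70) and Pcdhgb1 (172 and 126, ratio -0.54) lay more than 2 SD from other peaks of like signal, at -2.44 and -3.06 SD. Pcdhga10 followed with -0.44 (114 and 89.4). Of the 39 occupied members 12 lay beyond 1 SD and 2 beyond 2 SD. The share of all peaks beyond these limits was not counted, so the named genes are not shown to exceed ordinary replicate scatter.

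At the other end were Pcdhb13 (59.4 and 90.2, ratio 0.51), Pcdhb12 (64.5 and 92.7, ratio 0.43) and Pcdhb16 (76.9 and 102, ratio 0.32), all within 2 SD. No subfamily leaned to a replicate: the median ratio was 0.01 in beta, 0.02 in gamma A and -0.12 in gamma B. The Pcdhb20 peak was also the narrowest of the members, at 119 bp.

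**Figure D3:**
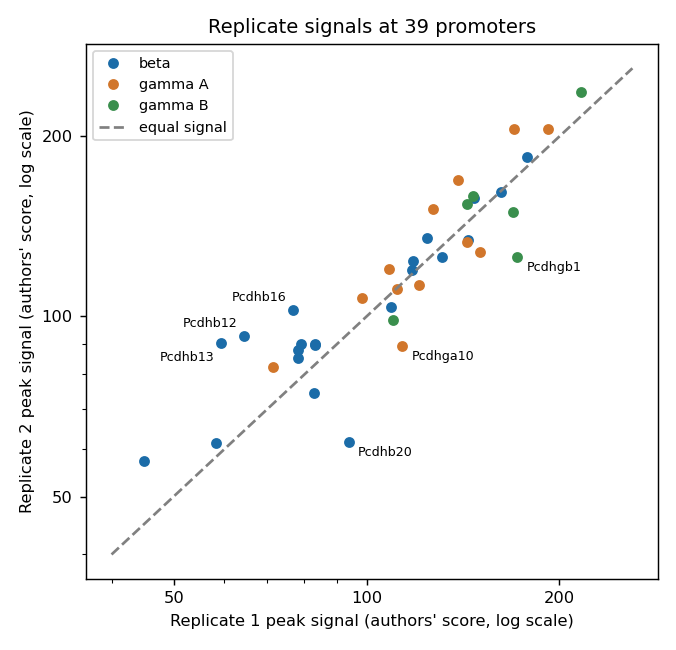
Peak signal of replicate 1 (x axis) against replicate 2 (y axis) for the 39 occupied members (authors' score, both axes logarithmic), with a dashed line at equal signal and names at the 3 largest and 3 smallest ratios. Points follow the line from the weakest beta gene (45.0 and 57.3) to Pcdhgb7 (216 and 237), and Pcdhb20 and Pcdhgb1 lie farthest below it.

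The position of the summit was nearly fixed relative to the start codon. Summits lay at a median of -237 bp from the codon (SD 24.8 bp, 39 members), where negative values are upstream. The medians were -228 bp in beta (-262 to -162), -240.5 bp in gamma A and -244.5 bp in gamma B (-254 to -207). All 39 lay upstream of the codon.

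Relative to the annotated TSS the summits were more scattered, with a median of -62 bp and an SD of 77.7 bp. They were upstream of it at 37 members and downstream at Pcdhb17 (127 bp) and Pcdhga12 (313 bp), which have the most distant TSSs. The annotated distance from TSS to codon itself ran from 0 bp at Pcdhb8 to 537 bp at Pcdhga12. The spread of the summits around the codon was thus less than that around the annotated TSS. Outlying annotated TSSs, as at Pcdhga12, Pcdhb17 and Pcdhb8, enter the TSS spread. In gamma B, which lacks them, the SD was 26.5 bp around the TSS and 16.9 bp around the codon. The part of TSS annotation in the contrast was not tested.

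The first base of the word CGCTG lay at a median of -235 bp from the codon (SD 25.6 bp, 37 members) and 7 bp after the summit, with a range from -13 to 24 bp. Its place relative to the codon is largely set by the search within 50 bp of the summit. Whether the word or another letter run nearby is what CTCF contacts was not tested.

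**Figure D4:**
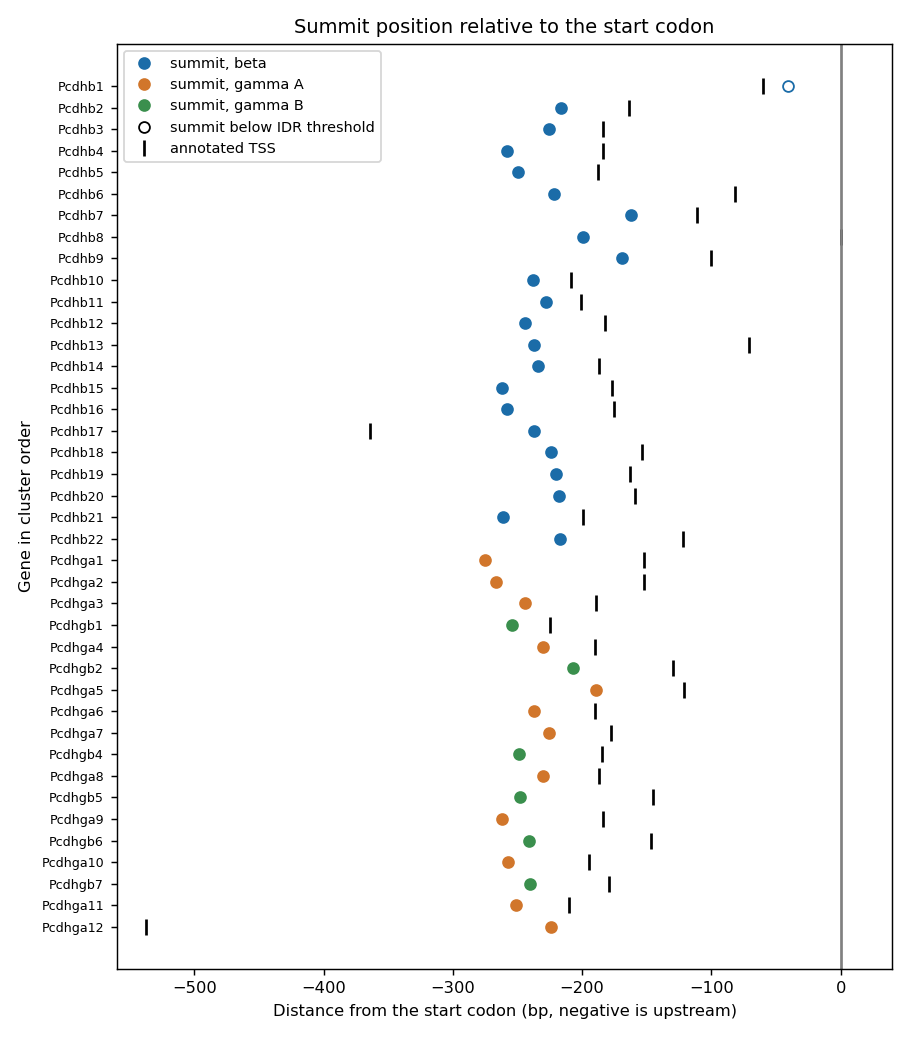
Summit (circles, coloured by subfamily) and annotated TSS (black ticks) of each of the 40 members in cluster order (y axis) by distance from the start codon in bp (x axis, negative is upstream). Summits of the 39 occupied members stack around -237 bp, while the ticks range from 0 to 537 bp before the codon, and the open circle is the weak Pcdhb1 peak at -41 bp.

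The member peaks had a median width of 270 bp (119 to 440), against 281 bp among 37610 other peaks in the same range of signal. Of the 39 members 31 were narrower than 300 bp, against 56.7% of those peaks. CpG content near the summit followed the same order of subfamilies as the signal. Counting 200 bp to each side, beta members had a median of 7 CpG dinucleotides, gamma A members 9.5 and gamma B members 13, with GC contents of 39.7%, 43.4% and 42.9%. Within a subfamily signal and CpG count were weakly related, with Spearman's rho of 0.26 in beta (21 genes), 0.05 in gamma A (12) and -0.18 in gamma B (6), as descriptions. The part of base composition in the signal was not tested.

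Sequence shared between paralogs can divide or remove reads, so the uniqueness of these windows was counted. Only exact recurrence in the chromosomes of the reference assembly was counted, so other alleles of the hybrid mice were not covered. No 50-base run within 200 bp of the summit recurred there for 37 of the 39 members. The share at other promoter summits was not counted. For Pcdhgb6 and Pcdhgb7 4.26% of the 50-base runs recurred, and no 100-base run recurred for any member. The read length is not given in the sources used here.

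Within the beta and gamma intervals few summits lay outside promoters, and those were in beta exons. The beta interval held 24 summits in 261 kb, of which 21 were the promoter summits of members. The other 3 lay inside coding exons. The gamma variable interval held 19 summits in 108 kb, 18 of members and 1 of Pcdhgb8, with none elsewhere. Per 100 kb this was 9.21 summits for beta and 17.6 for gamma. Neighbouring TSSs were 5337 bp apart at the median in gamma and 7756 bp in beta. Slc25a2, a mitochondrial carrier gene, and Taf7, which encodes a subunit of the general transcription factor TFIID, lie between the beta and gamma clusters and had no promoter summit. That stretch held 2 passing peaks, chr18:37570447-37570886 (signal 78.4) far from any TSS, and chr18:37655368-37655755 (signal 475) with its summit 124 bp from the TSS of 3222401L13Rik.

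The exonic peaks belonged to Pcdhb3, Pcdhb10 and Pcdhb14 and lay close to the end of the coding exon. At Pcdhb10 (chr18:37413881-37414320) the signal was 98.6, with 53.8 in replicate 1 and 41.6 in replicate 2, at 2228 bp after the first base of the codon. At Pcdhb14 (chr18:37449829-37450268) it was 68.1, with 33.2 and 30.3, at 2206 bp. At Pcdhb3 (chr18:37302980-37303419) it was 65.4, with 26.8 and 36.0, at 2217 bp. Each was weaker than the promoter peak of its own gene in both replicates. Exonic peaks of Pcdhb4, Pcdhb18 and Pcdhga8 were ranked with signals of 23.6, 17.1 and 21.9 and did not pass.

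Motif content was the reverse of that at the promoters. All 3 exonic summits had an exact core match, on the strand opposite to the gene. Among the 9654 promoter summits of protein-coding genes 3.68% had an exact match. An exact match was present in the coding exon of 13 of 22 beta genes, always on the opposite strand and always between 2182 and 2206 bp after the codon. None of the gamma A or gamma B exons had one. Only 3 of the 13 beta exons with the match had a summit within 50 bp, whether passing or only ranked. How often exact matches elsewhere in the genome carry a peak was not counted, so 3 of 13 cannot be called unusual.

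The 10 without a peak were Pcdhb4, Pcdhb5, Pcdhb12, Pcdhb13, Pcdhb15, Pcdhb16, Pcdhb17, Pcdhb20, Pcdhb21 and Pcdhb22. Recurring 50-base runs near the match made up 0 to 7.95% in the 3 exons with a peak and 0 to 13.4% in the 10 without, with medians of 2.84% and 0%. No 100-base run recurred in either set. The beta genes thus had promoter peaks with no core match within 1 mismatch, and exons with exact matches that mostly had no peak. The cause was not tested.

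**Figure D5:**
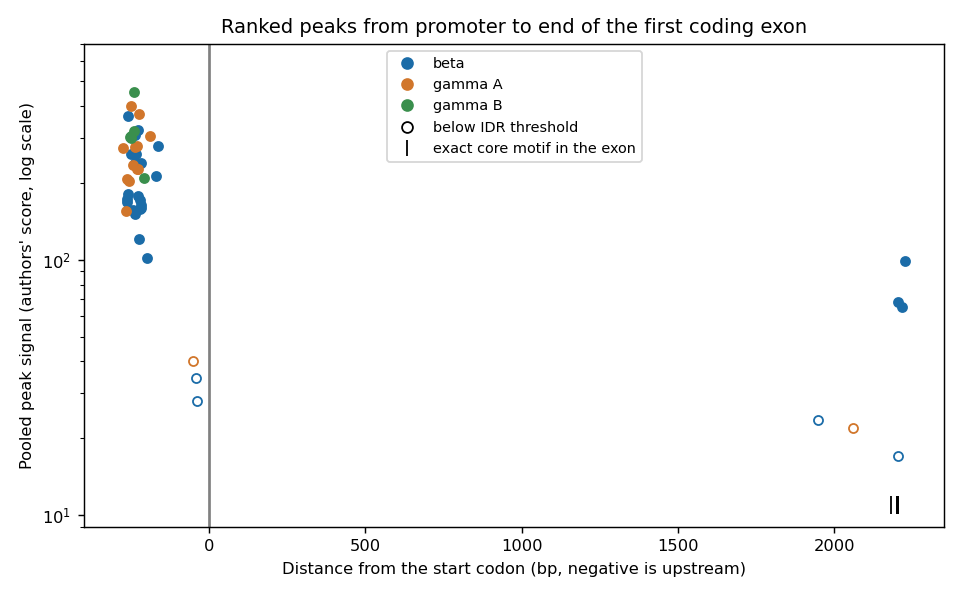
Pooled signal (authors' score, log y axis) of ranked CTCF peaks by distance from the start codon in bp (x axis, negative is upstream) for all 40 members, filled where the peak passed the IDR threshold and open where it did not, with ticks at exact core matches in the coding exons. Promoter peaks form the column near -237 bp, and the 3 passing exonic peaks of beta genes lie beside the ticks between 2182 and 2206 bp.

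Related promoters of the locus gave similar and different values. The 12 alpha variable genes were all occupied, with a median signal of 221 at their strongest summits, between the beta and gamma A medians. The C-type genes, whose promoters are regulated apart from the variable exons, ranged from 855 at Pcdhac1 and 556 at Pcdhgc3 to 60.3 at Pcdhac2, while Pcdhgc4 and Pcdhgc5 did not pass. An exact core match was present at 2 of the 12 alpha summits, those of Pcdha4 and Pcdha8, which lay 468 and 430 bp after the start codon. The other 10 alpha summits lay upstream of the codon and their closest matches had 2 or more mismatches.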

How the data were processed

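The authors deposited ranked and thresholded CTCF peak lists on mm10, per the labels. Per the notes deposited with the samples, both technical libraries of a replicate have 1 joint alignment. Not given in the sources used here are aligner, peak caller, versions, control and read depth. The deposited peak signal is a score without a stated scale, and the IDR score is capped. Deposited q-values and IDR are −log10 values, and no p-value was used. The replicate signals are those the authors assigned to each pooled peak.

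The list thresholded between replicates was used, and replicate signals came from its ranked version. Genes, TSSs and start codons were those of GENCODE M21 basic on GRCm38, the assembly of mm10. Chromosome lengths were checked against the peaks. The strongest promoter summit was used per gene. The 12-base CTCF core consensus was searched on both strands of the reference sequence. Every member was named. Values in full follow a rule: the 3 strongest and 3 weakest of each subfamily, unoccupied members, and the 3 largest and smallest replicate ratios. Members, lists and words were chosen with earlier results of these data known. Alternatives were single-replicate and pooled-read lists, an IDR of 0.01, promoter windows of 500 bp and 5 kb, other TSS sets, other mismatch limits and other centrings. Versions were matplotlib 3.10.9, scipy 1.17.1, pandas 2.3.3, numpy 2.4.6 and Python 3.11.15. Gene assignment and motif search were tested on simulated data.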

Additional observations from a re-analysis of the deposited data

How the results depend on the processing

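The counts of occupied members were the same with all lists, thresholds, windows and TSS sets tried. An IDR of 0.01 could not change them, because all member peaks had the highest IDR score. The pooled-read list repeats the member signals of the list used. In the 5 kb window a gene can be called through the peak of a neighbour, since gamma TSSs lay as little as 4131 bp apart. The share of all genes under these settings was not counted. The median log2 replicate ratio of beta, near 0 at 0.0091, changed sign to -0.00094 when centred on peaks of like signal, by far less than the spread of such ratios. No paired analysis was possible because the study has 1 group and its values exist per replicate, not per library. Leaving out either replicate gave median signals of 83.1 to 92.7 in beta, 124 in gamma A (123.8 to 124.1) and 152 to 158 in gamma B. These lower values have the scale of 1 replicate. The ratio of gamma B to gamma A was then 1.22 to 1.28 and rho along the gamma genes 0.36 to 0.45. Added after seeing the data, leaving out the first 4 occupied beta genes gave a rho of -0.24, and leaving out the last 3 gamma genes 0.061. Pcdhb1 at its ranked peak, also added, gave a rho of -0.32 in beta. With 2 mismatches 20.5% of members had a core match. Leaving out either replicate gave summit medians from the TSS of -70 to -63 bp in beta, -53.5 to -53 bp in gamma A and -75 to -71 bp in gamma B. From the start codon they were -238 to -229 bp, -242 to -234 bp and -243 to -242.5 bp. Unknown read depth limits any statement on precision per peak, and 2 pools give no error within a replicate.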
